A study of Mus musculus with 24 samples.

Results

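The 58 genes described here drive DNA replication and mitosis. They were chosen by name, as the rows of the count matrix that carry the listed mouse symbols, and all 58 were found among 39017 genes. The study sequenced RNA from the subcutaneous fat around the 4th mammary gland (C57BL/6 mice), with 4 libraries in each of 6 groups. HFD peritumoral, Chow peritumoral, HFD contralateral and Chow contralateral fat came from tumor-bearing mice. HFD no tumor and Chow no tumor fat had no tumor. Chow and HFD are the labels' names of the diets, and the series describes its mice as lean and obese. Peritumoral fat is the fat next to the tumor, and contralateral fat lies in the gland of the other side. The labels give no tumor line, age, sex or time on the diet, and no allele or drug. Titles mark all peritumoral fat with L and all other fat with R, so body side and closeness to the tumor cannot be told apart. Nothing in the labels says that libraries came from separate animals, so p-values measure only the spread between libraries, which may be technical.

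Before a cell copies its DNA, the proteins Cdc6 and Cdt1 load the ring of Mcm2 to Mcm7 onto origins. In S phase, Cdc45 and the Gins proteins turn that ring into a working helicase, and polymerases follow it while Pcna clamps them to the DNA. In mitosis, Cdk1 with its cyclins starts the division, spindle motors and kinetochores move the chromosomes, and the ubiquitin system ends it. Mature adipocytes rarely divide, so these genes are best known in fat from the stromal, vascular and immune cells between the adipocytes. In bulk tissue, fewer cells of a dividing type and less RNA per cell cannot be told apart, and this holds for every result here.

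Promoter windows of 47 of the 58 genes were in the RefSeq table (build GRCm38.p6), with 50 windows in all, each running from 250 bases before to 50 bases after a transcript start. They are shown because the replication and the mitosis genes differed in the letters they hold. Capitals mark E2F motifs (TTTCCCGC, TTTGGCGC, TTTGCCGC or TTTCGCGC), the CHR motif TTTGAA, and CCAAT, each searched on both strands. In Mcm5 and in Mcm6 a pair of E2F motifs on opposite strands overlaps, and each such pair is printed as one run of capitals. Mcm5 lies at chr8:75109259-75109558 on the plus strand, Mcm6 at chr1:128359656-128359955, Cdk1 at chr10:69352863-69353162, Top2a at chr11:99024140-99024439 and Mki67 at chr7:135716330-135716629, these 4 on the minus strand. Each window is written 5′ to 3′ in the direction of its gene.
Mcm5: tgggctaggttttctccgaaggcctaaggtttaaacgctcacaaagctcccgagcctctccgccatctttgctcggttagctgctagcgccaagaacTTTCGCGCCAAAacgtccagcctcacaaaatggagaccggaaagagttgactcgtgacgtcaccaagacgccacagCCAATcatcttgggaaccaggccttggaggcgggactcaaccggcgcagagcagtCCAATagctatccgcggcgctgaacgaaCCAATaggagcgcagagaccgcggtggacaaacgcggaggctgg
Mcm6: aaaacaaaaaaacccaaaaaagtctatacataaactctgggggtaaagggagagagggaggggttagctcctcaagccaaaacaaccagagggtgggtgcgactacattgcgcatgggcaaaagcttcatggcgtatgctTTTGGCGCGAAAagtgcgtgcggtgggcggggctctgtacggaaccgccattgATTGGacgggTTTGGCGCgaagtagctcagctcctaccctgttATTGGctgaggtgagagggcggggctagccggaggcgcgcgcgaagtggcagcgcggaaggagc
Cdk1: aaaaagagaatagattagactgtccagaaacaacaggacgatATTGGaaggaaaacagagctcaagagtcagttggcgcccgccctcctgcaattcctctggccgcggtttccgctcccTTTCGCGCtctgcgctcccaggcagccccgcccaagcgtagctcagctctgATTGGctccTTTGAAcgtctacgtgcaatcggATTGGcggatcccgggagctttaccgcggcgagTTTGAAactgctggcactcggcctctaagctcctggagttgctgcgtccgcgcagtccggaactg
Top2a: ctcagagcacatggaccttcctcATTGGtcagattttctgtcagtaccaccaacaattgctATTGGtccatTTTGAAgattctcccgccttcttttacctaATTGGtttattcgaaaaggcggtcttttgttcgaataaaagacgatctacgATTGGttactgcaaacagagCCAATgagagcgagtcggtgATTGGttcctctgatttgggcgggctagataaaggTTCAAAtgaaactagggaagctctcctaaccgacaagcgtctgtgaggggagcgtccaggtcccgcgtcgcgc
Mki67: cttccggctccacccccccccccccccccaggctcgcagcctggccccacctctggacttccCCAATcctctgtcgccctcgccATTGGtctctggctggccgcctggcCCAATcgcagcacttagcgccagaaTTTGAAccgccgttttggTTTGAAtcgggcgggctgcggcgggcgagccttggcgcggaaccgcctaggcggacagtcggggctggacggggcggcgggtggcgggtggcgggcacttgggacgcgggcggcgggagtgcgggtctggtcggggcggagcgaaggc
The E2F motifs stood in 8 of 20 windows of replication genes (40%) and in 3 of 24 windows of mitosis genes (12.5%), against 2.3% of the 32851 windows of all genes. The CHR motif showed the other order, with 2 of 20 replication windows (10%) and 18 of 24 mitosis windows (75.0%), against 17.9% of all windows. CCAAT was in 75.0% of replication windows and 70.8% of mitosis windows, against 37.4% of all. Replication genes here are the licensing, polymerase and S-phase genes, and mitosis genes are the kinase, spindle and chromosome genes. The cyclin, Cdk1 and transcription factor genes form a set of their own with 6 windows. A match describes the letters and shows no binding.

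**Figure D1:**
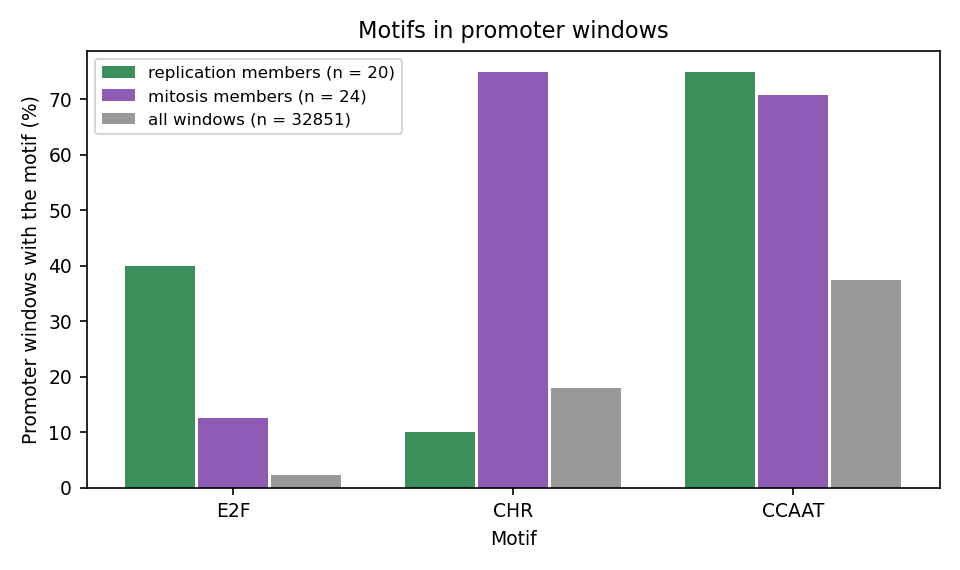
Share of promoter windows (y axis, percent) that hold each motif (x axis), as bars for 20 windows of replication genes, 24 windows of mitosis genes and all 32851 windows. The E2F bar is tallest for the replication genes (40%) and the CHR bar for the mitosis genes (75.0%).

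Levels are CPM (counts per M counts in genes), scaled with TMM factors over the 24 libraries, whose totals ran from 9.13 to 18.2 M counts. The fat was rich in adipocyte transcripts, since 8 markers such as Adipoq and Plin1 summed to between 8748 and 20289 CPM. The members were rare transcripts with mean levels between 1.501 CPM (Ccnb1) and 51.9 CPM (Mki67) over all libraries, and single counts as low as 3. Set per kilobase of exon, Mcm6 led in HFD peritumoral fat with 17.5 CPM per kb and in Chow no tumor fat with 6.77 CPM per kb. Ccnb1, the cyclin B of mitotic entry, stood at 1.36 CPM per kb in HFD peritumoral fat and was lowest in Chow no tumor fat with 0.098 CPM per kb.

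Summed over the 58 genes, the level was 747, 2123, 1224 and 1537 CPM in the HFD peritumoral libraries and 292, 328, 475 and 793 CPM in the Chow peritumoral libraries. It was 419, 454, 320.0 and 331 CPM in HFD contralateral fat and 262, 268, 289 and 318 CPM in Chow contralateral fat. In fat without a tumor it was 326, 404, 348 and 373 CPM on HFD and 352, 277, 309 and 277 CPM on Chow. HFD peritumoral fat was the highest group, but its lowest library lay below the highest Chow peritumoral library. Among the Chow peritumoral libraries, replicates 1 and 2 lay near the contralateral range and replicates 3 and 4 above it. The other 4 groups lay close together.

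**Figure D2:**
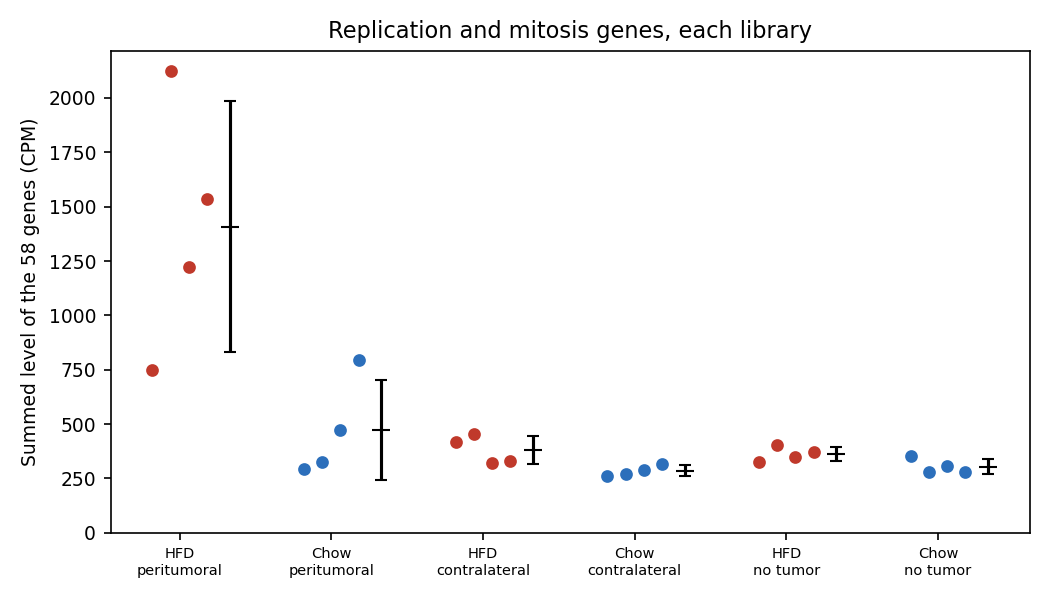
Summed level of the 58 genes (y axis, CPM) in each of the 4 libraries of the 6 groups (x axis), red for HFD and blue for Chow, with the mean and SD as a black bar. HFD peritumoral libraries span 747 to 2123 CPM and Chow peritumoral libraries 292 to 793 CPM, while all other libraries lie between 262 and 454 CPM.

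Peritumoral fat on HFD held more of nearly every one of these transcripts than contralateral fat on the same diet. By the quasi-likelihood test of edgeR, adjusted over all genes by Benjamini-Hochberg, 57 of 58 members rose, none fell, and their median log2 fold change was 2.21. Of all 15627 genes tested, 29.5% passed in either direction (16.8% higher and 12.7% lower), with a median of -0.02. For 57 members every HFD peritumoral library lay above every HFD contralateral library, which was so for 16.8% of all genes. The changes were more than 4-fold for 35 members and more than 2-fold for 48.

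Among the replication genes, all 12 origin licensing members rose, with a median log2 fold change of 1.44. Mcm5, a subunit of the helicase ring, had 17.8, 45.8, 24.7 and 31.5 CPM in HFD peritumoral fat, against 9.68, 10.5, 5.54 and 5.83 CPM in HFD contralateral fat. Mcm2, its neighbour in the ring, had 15.3, 41.0, 28.3 and 25.4 CPM in HFD peritumoral fat, against 7.93, 9.90, 5.48 and 5.51 CPM in HFD contralateral fat. Neither gene's groups overlapped, and replicate 2 was the highest peritumoral library for both. The log2 fold change was 1.93 ± 0.31 for Mcm5 (SE, edgeR adjusted p = 0.00357) and 1.94 ± 0.30 for Mcm2. Mcm7, of the same ring, changed least in this list (0.71 ± 0.20), and Mcm10, which helps start the helicase, changed most (2.57 ± 0.51).

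All 7 genes of polymerases, clamp and nucleotide supply rose, with a median log2 fold change of 1.02. Pcna, the sliding clamp, had 23.05, 29.7, 26.3 and 29.5 CPM in HFD peritumoral fat, against 13.98, 17.5, 14.8 and 16.2 CPM in HFD contralateral fat. Rrm2, a subunit of the enzyme that makes deoxynucleotides, had 7.87, 17.4, 11.5 and 13.1 CPM in HFD peritumoral fat, against 3.33, 3.63, 1.79 and 2.32 CPM in HFD contralateral fat. Both pairs of groups stood apart, Pcna by 0.80 ± 0.11 and Rrm2 by 2.18 ± 0.29 (edgeR adjusted p = 0.00154) on the log2 scale. Tk1, the thymidine salvage kinase, was the only called member whose groups overlapped (1.04 ± 0.25). The 4 S-phase genes had a median of 2.37. Among them, Brca1, a repair protein, had 10.3, 23.5, 13.6 and 17.7 CPM in HFD peritumoral fat, against 4.54, 4.43, 2.34 and 2.51 CPM in HFD contralateral fat (2.24 ± 0.31). Esco2, which locks sister chromatids together, rose by 2.32 ± 0.31 on the log2 scale (edgeR adjusted p = 0.00164).

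Of the 9 cyclins, Cdk1 and transcription factors, 8 rose. Cdk1, the kinase of mitotic entry, had 11.1, 37.3, 17.3 and 24.03 CPM in HFD peritumoral fat, against 4.78, 5.41, 3.14 and 5.70 CPM in HFD contralateral fat (2.25 ± 0.36). Foxm1, a transcription factor of mitotic genes, had 8.04, 33.8, 17.5 and 24.6 CPM in HFD peritumoral fat, against 5.08, 4.37, 2.77 and 3.51 CPM in HFD contralateral fat (2.42 ± 0.40). The groups did not overlap for either gene. Ccnb2, a mitotic cyclin, rose by 2.80 ± 0.37, and Ccne1, the cyclin of S-phase entry, had 2.92, 6.55, 3.98 and 6.17 CPM in HFD peritumoral fat, against 2.60, 2.64, 1.97 and 2.82 CPM in HFD contralateral fat (0.98 ± 0.27). The Ccne1 call was lost in 6 of 15 alternative fits. E2f1, a transcription factor of replication genes, was the member that did not pass. It had 11.3, 12.5, 11.7 and 11.01 CPM in HFD peritumoral fat, against 8.47, 11.01, 9.17 and 10.96 CPM in HFD contralateral fat (0.24 ± 0.12, edgeR adjusted p = 0.145).

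Among the mitosis genes, the median log2 fold changes were 2.57 for the 10 kinase, checkpoint and anaphase genes, 2.49 for the 12 spindle, kinetochore and cytokinesis genes and 2.32 for the 4 chromosome genes, and all 26 rose. Bub1, a spindle checkpoint kinase, had 5.51, 34.0, 16.2 and 19.9 CPM in HFD peritumoral fat, against 1.88, 2.40, 1.35 and 0.877 CPM in HFD contralateral fat (3.54 ± 0.53). Aurkb, the kinase that corrects spindle attachments, had 6.18, 21.04, 10.9 and 13.4 CPM in HFD peritumoral fat, against 3.03, 2.83, 1.54 and 1.88 CPM in HFD contralateral fat (2.48 ± 0.38). Top2a, which untangles chromosomes, had 43.7, 212, 97.0 and 138 CPM in HFD peritumoral fat, against 24.3, 23.5, 10.6 and 11.5 CPM in HFD contralateral fat (2.83 ± 0.47). In all 3 genes the groups stood apart and HFD peritumoral replicate 1 was the lowest of its group. Mki67, which coats mitotic chromosomes and is the usual marker of dividing cells, had 89.8, 167, 139.8 and 157 CPM in HFD peritumoral fat, against 28.5, 52.01, 27.2 and 28.8 CPM in HFD contralateral fat (2.03 ± 0.25, edgeR adjusted p = 0.00121). The lowest adjusted p belonged to Melk, a mitotic kinase (2.61 ± 0.30, adjusted p = 0.000798), followed by Kif11, a motor that separates the spindle poles (2.59 ± 0.31, adjusted p = 0.00108). Kif20a, a motor of cytokinesis, rose by 2.30 ± 0.31 and Birc5, of the chromosomal passenger complex, by 2.87 ± 0.39.

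**Figure D3:**
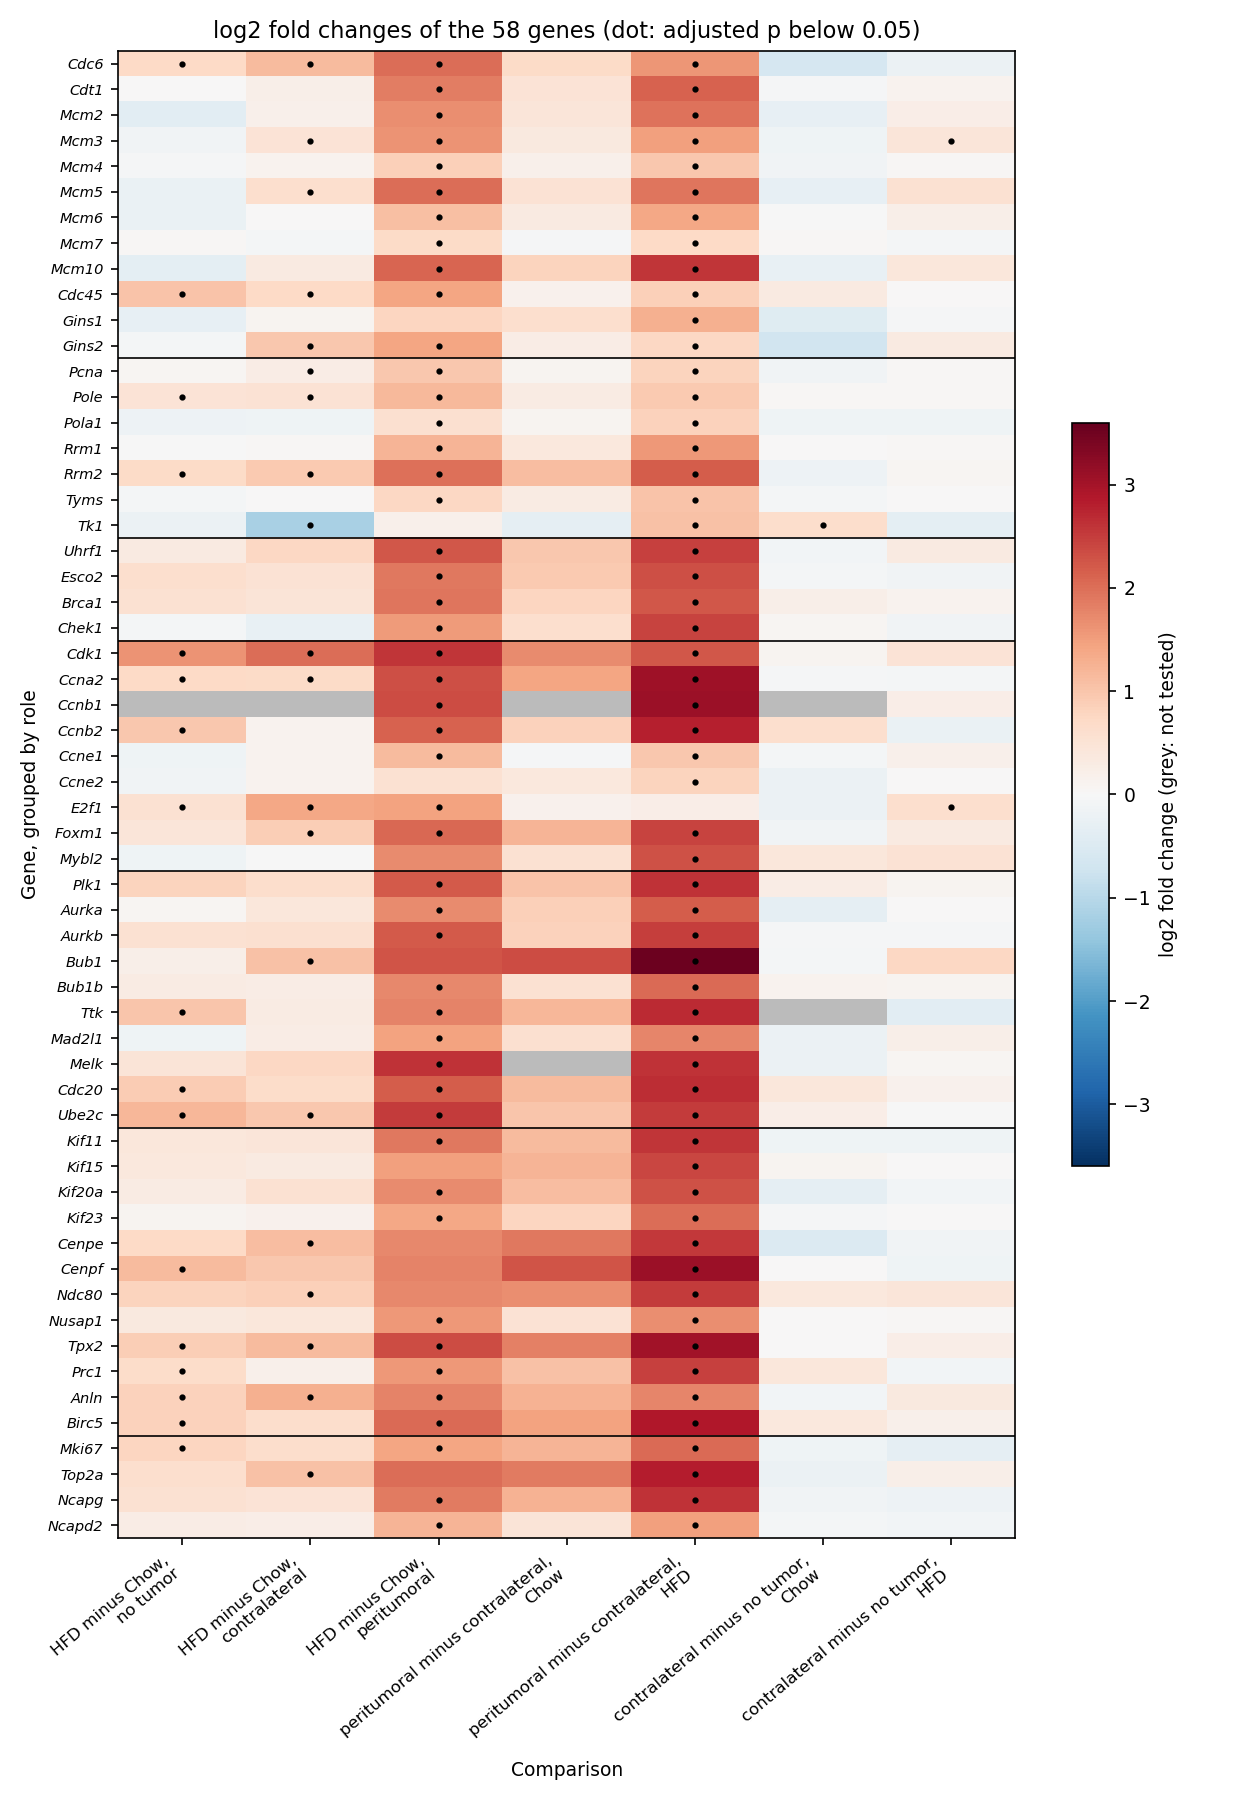
log2 fold changes (colour) of the 58 genes (rows, grouped by role with black lines between the 7 lists) in the 7 comparisons of 2 groups (columns), with a dot where the edgeR adjusted p is below 0.05 and grey where a gene was not tested. The column for HFD peritumoral against contralateral fat has dots for 57 genes, and the matching Chow column has none.

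On Chow edgeR called no member and no other gene in the same comparison. Of the 56 members tested, 0 passed edgeR's adjusted threshold, where 0% of 16057 genes did, and DESeq2 called 0 members and 0.118% of all genes. At an unadjusted p below 0.05 edgeR had 22 members, where 8.6% of all genes passed. Ccnb1 and Melk had too few counts to be tested. The fold changes were above 0 for 53 of the 56, with a median log2 value of 0.79 (all genes -0.01), and 5 members had no overlap between groups, against 2.65% of all genes. Mki67 had 24.5, 30.1, 58.1 and 89.3 CPM in Chow peritumoral fat, against 13.8, 21.7, 23.1 and 27.2 CPM in Chow contralateral fat (1.23 ± 0.47, edgeR adjusted p = 0.567). Top2a had 11.1, 11.8, 27.4 and 69.6 CPM in Chow peritumoral fat, against 6.00, 8.01, 9.05 and 9.46 CPM in Chow contralateral fat (1.86 ± 0.69). Within Chow peritumoral fat, replicates 3 and 4 were the high libraries for both genes. Without replicate 4 the median of the members was 0.38.

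The test of whether the peritumoral difference itself was larger on HFD than on Chow called 0 of 58 members, and 0% of 16859 genes. At an unadjusted p below 0.05 edgeR had 36 members, where 19.9% of all genes passed, and DESeq2 called 11 members and 4.31% of all genes. In the edgeR fit of all 24 libraries, 7 members and 1.94% of all genes passed. All 58 interaction values were above 0, with a median log2 value of 1.23 (all genes 0.02). The smallest adjusted p was 0.0639, for Pcna. The call depended on single libraries. Without HFD peritumoral replicate 1, the lowest of its group, 27 members and 11.2% of all genes passed, and without Chow peritumoral replicate 3 there was 1 member, where 0.395% of all genes passed.

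In peritumoral fat, HFD against Chow gave 48 higher members of 58 and none lower, where 33.6% of all genes tested passed (16.4% higher and 17.2% lower). The median log2 fold change was 1.72 (all genes 0.02). This comparison uses the same HFD peritumoral libraries as the one across sides. By role, 11 of 12 licensing genes, 6 of 7 polymerase and nucleotide genes, 4 of 4 S-phase genes, 7 of 9 cyclin and factor genes, 9 of 10 kinase genes, 8 of 12 spindle genes and 3 of 4 chromosome genes were called higher. The HFD libraries lay above all Chow libraries for 26 members, against 17.9% of all genes, and 9 of these 26 were licensing genes. Pcna had 23.05, 29.7, 26.3 and 29.5 CPM on HFD, against 14.3, 12.5, 14.4 and 12.5 CPM on Chow (0.97 ± 0.12, edgeR adjusted p = 0.000693). E2f1 had 11.3, 12.5, 11.7 and 11.01 CPM on HFD, against 2.96, 4.61, 5.09 and 3.74 CPM on Chow (1.46 ± 0.18, adjusted p = 0.000701). These were the members with the lowest adjusted p, and their libraries stood well apart.

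Several more members had called diet differences in peritumoral fat. Gins2, a helicase subunit, changed by 1.43 ± 0.23 on the log2 scale, but it shares 67.3% of its exon bases with Gse1. Cdc6, the loader of the ring, changed by 2.001 ± 0.35, and Mcm5 by 2.02 ± 0.35. Esco2 changed by 1.89 ± 0.36, Aurkb by 2.21 ± 0.41 and Nusap1, which bundles spindle microtubules, by 1.55 ± 0.30. Mki67 had 89.8, 167, 139.8 and 157 CPM on HFD, against 24.5, 30.1, 58.1 and 89.3 CPM on Chow (1.42 ± 0.41, edgeR adjusted p = 0.0295), with the lowest HFD library just above the highest Chow library. The Mki67 call was lost in 7 of 15 alternative fits. Top2a, with 43.7 CPM in the lowest HFD library and 69.6 CPM in the highest Chow library, overlapped and did not pass (2.01 ± 0.74, edgeR adjusted p = 0.0714). The 10 members not called were Gins1, Tk1, Ccne2, Mybl2, Bub1, Kif15, Cenpe, Cenpf, Ndc80 and Top2a. Their values ran from 0.18 for Tk1 to 2.27 for Bub1. Without Chow peritumoral replicate 1 or replicate 2 the count was 30, and without HFD peritumoral replicate 4 it was 31.

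In fat without a tumor, 17 of 57 members were higher on HFD and none lower, where 24.9% of all genes tested passed (13.6% higher and 11.3% lower). The median was 0.39 (all genes -0.02), and Ccnb1 had too few counts to be tested. Cdk1 had 2.43, 4.01, 3.36 and 3.53 CPM on HFD, against 1.02, 1.47, 0.930 and 0.980 CPM on Chow (1.61 ± 0.23, edgeR adjusted p = 0.000354). Cdc45 had 5.16, 5.54, 5.81 and 5.83 CPM on HFD, against 2.67, 3.30, 2.72 and 2.29 CPM on Chow (1.04 ± 0.15, adjusted p = 0.000324). Neither gene's groups overlapped, and HFD lay wholly above Chow for 16 of the members and 14.4% of all genes. With all 24 libraries in one edgeR fit, 3 of the 17 calls remained, Cdc45, Cdk1 and E2f1, where 17.9% of all genes passed.

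By role, all 12 spindle genes had values above 0 and 5 were called, among them Cenpf, a kinetochore protein (1.14 ± 0.18), Prc1, which bundles the midzone (0.66 ± 0.13), and Anln, of the contractile ring (0.82 ± 0.17). In the fit of all 24 libraries these had edgeR adjusted p-values of 0.298 for Cenpf, 0.24 for Prc1 and 0.177 for Anln. Of the 10 kinase and anaphase genes 3 were called, with Ube2c, which tags mitotic proteins for breakdown, at 1.20 ± 0.26 (edgeR adjusted p = 0.0747 with all 24 libraries). Of the 12 licensing genes 8 had values below 0 and only Cdc45 and Cdc6 were called. Mcm5 had 4.80, 4.46, 6.06 and 6.06 CPM on HFD, against 8.91, 3.65, 6.51 and 6.21 CPM on Chow (-0.23 ± 0.22, edgeR adjusted p = 0.5). E2f1, which rose, had 6.996, 6.24, 6.42 and 6.06 CPM on HFD, against 4.52, 4.14, 4.52 and 4.38 CPM on Chow (0.56 ± 0.11). Pole, the leading-strand polymerase, rose by 0.50 ± 0.13 (edgeR adjusted p = 0.0837 with all 24 libraries). Leaving out any 1 library gave 9 to 21 calls, with 9 to 11 without HFD no tumor replicate 2, 3 or 4 or Chow no tumor replicate 4.

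**Figure D4:**
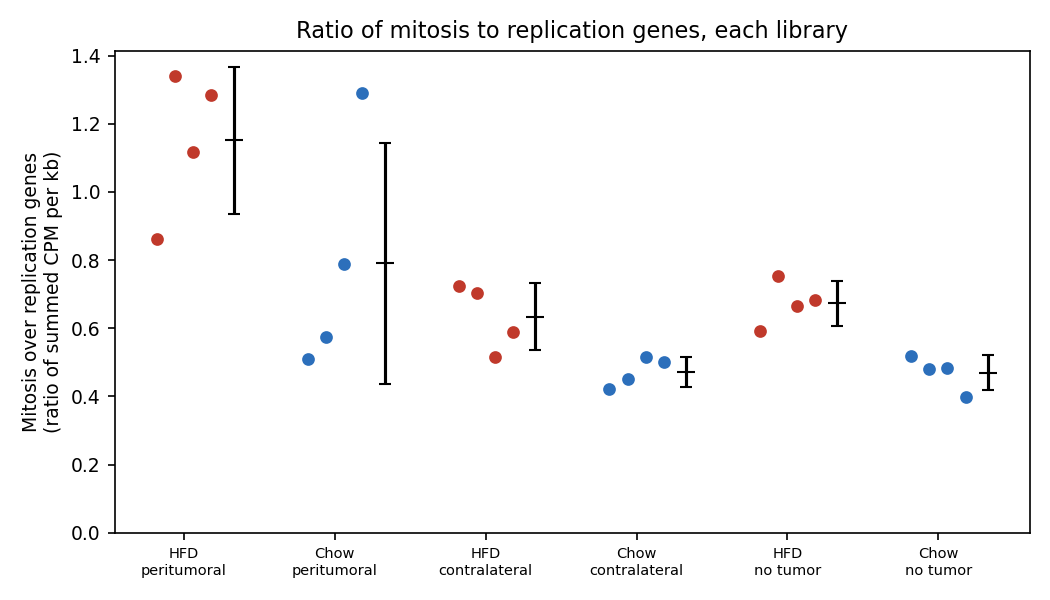
Summed CPM per kilobase of exon of 26 mitosis genes over that of 23 replication genes (y axis, ratio) in each library of the 6 groups (x axis), with the mean and SD as a black bar. The ratio is 0.861 to 1.34 in HFD peritumoral fat, and in fat without a tumor it is 0.592 to 0.753 on HFD and 0.398 to 0.520 on Chow.

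Set against each other per kilobase of exon, mitosis and replication genes gave a ratio of summed levels. It was 0.861, 1.34, 1.12 and 1.28 in HFD peritumoral fat and 0.511, 0.575, 0.787 and 1.29 in Chow peritumoral fat. In contralateral fat it was 0.724, 0.704, 0.516 and 0.588 on HFD and 0.421, 0.451, 0.514 and 0.500 on Chow. Without a tumor it was 0.592, 0.753, 0.666 and 0.684 on HFD and 0.520, 0.480, 0.483 and 0.398 on Chow. The diets stood apart in no tumor fat and overlapped in peritumoral fat. In contralateral fat the lowest HFD ratio (0.516) was barely above the highest Chow ratio (0.514). The ratio is a description of the members, without a test.

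In contralateral fat, 19 of 57 members were higher on HFD and 1 lower, where 49.3% of all genes tested passed (24.5% higher and 24.8% lower). The share of members called, 35.1%, was thus below that of all genes. The median log2 value was 0.49 (all genes -0.01), and Ccnb1 was again not tested. Cdk1 had 4.78, 5.41, 3.14 and 5.70 CPM on HFD, against 1.02, 1.05, 1.37 and 1.15 CPM on Chow (1.999 ± 0.23, edgeR adjusted p = 3.88e-05). Anln had 21.6, 20.4, 15.9 and 18.7 CPM on HFD, against 7.43, 6.39, 9.81 and 6.71 CPM on Chow (1.29 ± 0.14, adjusted p = 2.71e-05). Both genes had groups far apart, and HFD lay wholly above Chow for 14 of the members and 25.6% of all genes. E2f1 had 8.47, 11.01, 9.17 and 10.96 CPM on HFD, against 3.75, 3.34, 3.09 and 4.54 CPM on Chow (1.38 ± 0.15, adjusted p = 2.68e-05). Cenpe, a kinetochore motor, changed by 1.10 ± 0.20, Gins2 by 0.97 ± 0.20, Mcm3, of the helicase ring, by 0.49 ± 0.10 and Pole by 0.52 ± 0.12. With all 24 libraries in one edgeR fit 9 of the 20 calls remained, where 43.6% of all genes passed, and Cenpe (adjusted p = 0.0676) and Mcm3 (0.0609) were not among them. The count was 12 without Chow contralateral replicate 1 or HFD contralateral replicate 2, and 13 without HFD contralateral replicate 1.

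Tk1 went the other way in contralateral fat. It had 5.99, 7.50, 5.79 and 6.14 CPM on HFD, against 16.5, 13.1, 12.2 and 14.005 CPM on Chow, with no overlap. Its log2 fold change was -1.17 ± 0.12 (edgeR adjusted p = 2.17e-05), the lowest adjusted p of any member in this fat. In peritumoral fat Tk1 had 7.31, 18.6, 12.1 and 14.04 CPM on HFD, against 11.5, 10.9, 12.8 and 9.13 CPM on Chow (0.18 ± 0.24), and there the groups overlapped. Without a tumor it had 7.53, 9.30, 7.71 and 7.12 CPM on HFD, against 9.61, 9.06, 8.70 and 9.21 CPM on Chow (-0.20 ± 0.11).

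Over the 3 positions, 10 members were higher on HFD each time: Anln, Ccna2, Cdc45, Cdc6, Cdk1, E2f1, Pole, Rrm2, Tpx2 and Ube2c. That is 17.5% of the 57 members tested at all positions, and 4.83% of the 15352 genes tested at all were higher at all. With all 24 libraries in one fit, 3 members (Cdc45, Cdk1 and E2f1) were higher at all positions, which is 5.17% of the members and compares with 6.3% of all genes. These comparisons share no libraries. A further 11 members were higher at 2 positions and 32 at 1, while Ccne2, Gins1, Kif15 and Mybl2 were called at none and Tk1 was lower at 1. The 32 include Ccnb1, which was tested between diets only in peritumoral fat. The matching shares of all genes were not counted, so these numbers only describe the members.

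**Figure D5:**
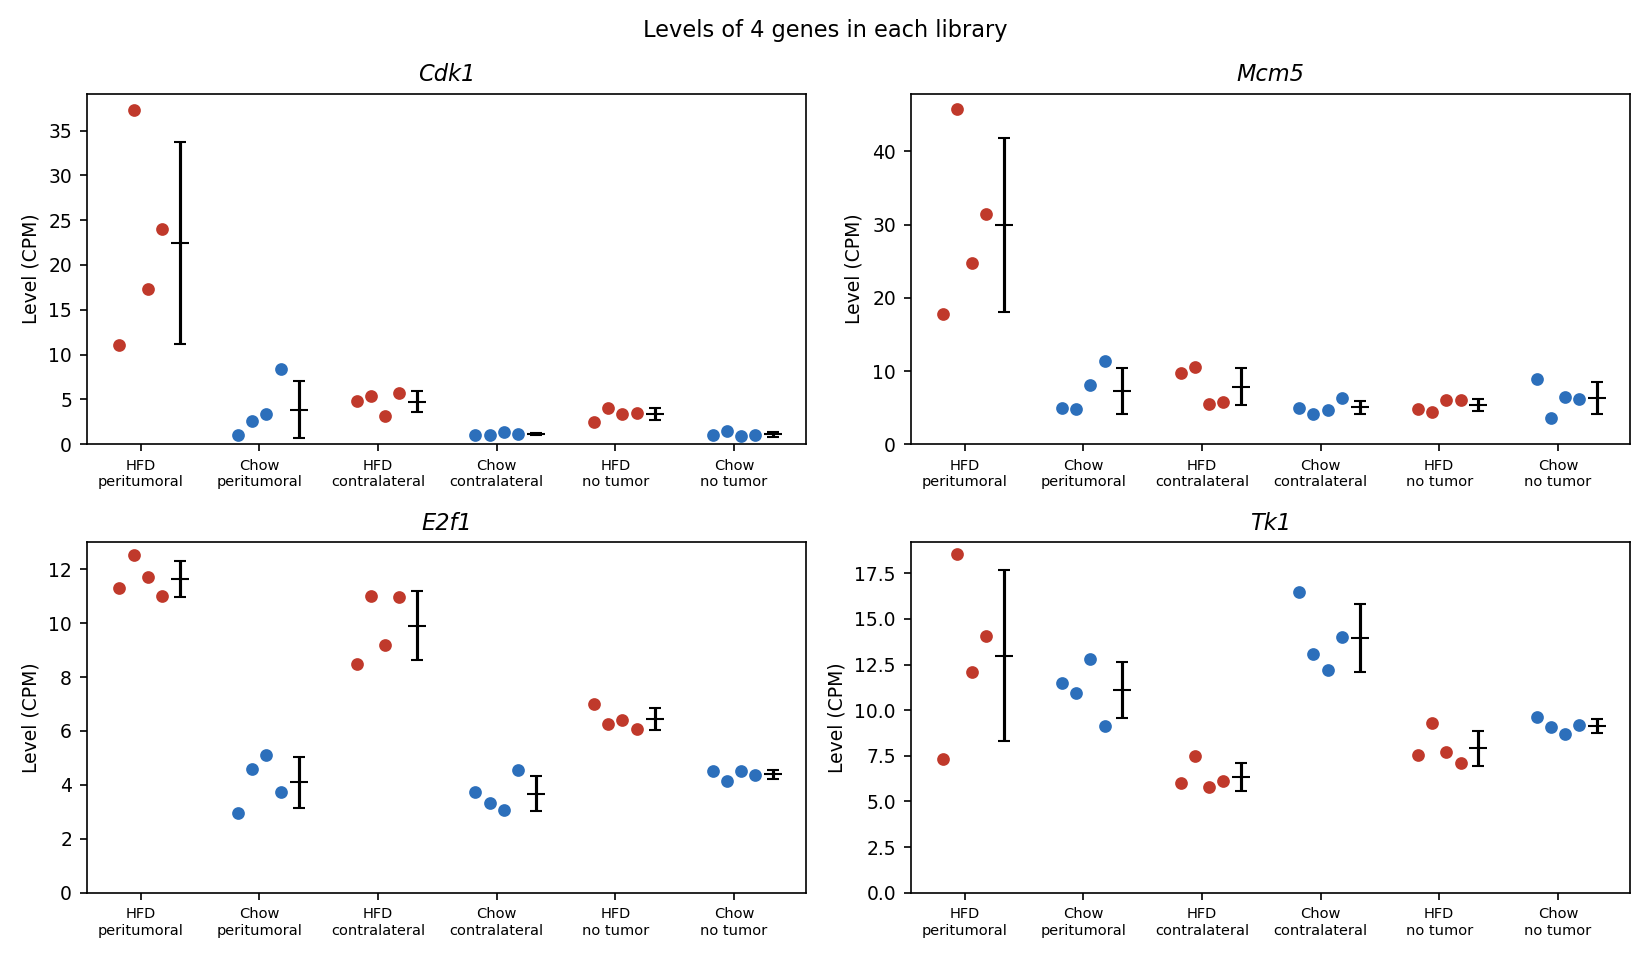
Levels (y axis, CPM) of Cdk1, Mcm5, E2f1 and Tk1 in each of the 4 libraries of the 6 groups (x axis), red for HFD and blue for Chow, with the mean and SD as a black bar. Cdk1 and Mcm5 are highest in HFD peritumoral fat, and E2f1 is at 8.47 CPM or more in HFD peritumoral and contralateral fat. Tk1 is at 12.2 CPM or more in every Chow contralateral library, but its highest single library is in HFD peritumoral fat.

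Few members differed between contralateral fat of tumor-bearing mice and fat of mice without a tumor. On HFD 2 of 58 members rose, where 6.08% of all genes passed (2.72% higher and 3.37% lower), and the median was 0.04 (all genes 0.01). These were E2f1, with 8.47, 11.01, 9.17 and 10.96 CPM in HFD contralateral fat, against 6.996, 6.24, 6.42 and 6.06 CPM in HFD no tumor fat (0.60 ± 0.11, edgeR adjusted p = 0.0114), and Mcm3. Mcm3 had 14.04, 13.5, 13.2 and 11.7 CPM in HFD contralateral fat, against 9.07, 9.81, 9.42 and 9.89 CPM in HFD no tumor fat (0.43 ± 0.09, adjusted p = 0.0164), but did not pass without HFD no tumor replicate 3 or with all 24 libraries in one fit. On Chow 1 of 56 members rose, where 7.95% of all genes passed (4.93% higher and 3.02% lower), and the median was -0.06 (all genes -0.01). That was Tk1, with 16.5, 13.1, 12.2 and 14.005 CPM in Chow contralateral fat, against 9.61, 9.06, 8.70 and 9.21 CPM in Chow no tumor fat (0.65 ± 0.11, adjusted p = 0.00933, and 0.0533 with all 24 libraries). In each of these 3 genes the groups stood apart, with the contralateral libraries above the others, as for 9.37% of all genes on HFD and 7.89% on Chow. Ccnb1 and Ttk were not tested on Chow.

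Whether the contralateral difference depended on diet was tested directly, and 4 of 58 members passed, where 19.9% of 16676 genes did (9.94% higher and 9.94% lower). The share of members was below that of all genes. The log2 change of HFD less that of Chow was 0.82 ± 0.18 for E2f1 (edgeR adjusted p = 0.00561), 0.62 ± 0.16 for Mcm3 (adjusted p = 0.0129), 1.04 ± 0.28 for Gins2 (adjusted p = 0.0144) and -0.97 ± 0.16 for Tk1 (adjusted p = 0.00116). In each the estimated change had opposite signs on the diets, but it was never called on both. The change was called on HFD for E2f1 and Mcm3, on Chow for Tk1, and on neither diet for Gins2. It was 0.60 on HFD and -0.21 on Chow for E2f1, 0.43 on HFD and -0.16 on Chow for Mcm3, 0.33 on HFD and -0.69 on Chow for Gins2, and -0.34 on HFD and 0.65 on Chow for Tk1. The Mcm3 call was lost with all 24 libraries in one fit (adjusted p = 0.206). The median of the members was 0.12 (all genes 0.01).

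The rest of the machinery was counted from lists. In HFD peritumoral against HFD contralateral fat, 16.8% of all genes tested rose and 12.7% fell. There 23 of 29 other replication genes (median 1.01) and 33 of 35 other mitosis genes (median 2.39) rose, and 0 of either fell. Among them were Clspn, a fork protein (2.61 ± 0.39), Asf1b, a histone chaperone (2.12 ± 0.33), Lig1, which joins Okazaki fragments (1.18 ± 0.21), Kif2c, a microtubule depolymerase (3.15 ± 0.38), and Hmmr, a spindle protein (3.38 ± 0.44). Of 8 G1 cyclins and kinases, 5 rose and 1 fell. Cdk6 (1.35 ± 0.25) and Cdk4 (0.87 ± 0.17), kinases of G1, rose with Cdc25a (0.87 ± 0.19), an activating phosphatase, and Myc (1.59 ± 0.38), a growth factor-induced transcription factor. Of 15 inhibitors and pocket proteins, 2 rose and 5 fell. The tumor suppressor Trp53 (0.88 ± 0.18) and the pocket protein Rbl1 (0.65 ± 0.14) rose, and Ccng2 (-0.42 ± 0.10), Rb1 (-0.40 ± 0.12) and Cdkn2b (-0.63 ± 0.19), which restrain the cycle, were among those that fell. The Rb1 call was lost in 7 of 15 alternative fits.

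The same lists were also compared between the diets. In peritumoral fat 22 of 29 other replication genes and 30 of 35 other mitosis genes were higher on HFD and 0 of either lower, where 16.4% of all genes were higher. In contralateral fat 4 of 28 other replication genes rose and 1 fell, and 18 of 30 other mitosis genes rose and 1 fell, where 24.5% of all genes rose and 24.8% fell. Without a tumor 0 of 29 other replication genes rose and 1 fell (Pole2, a polymerase subunit, -0.54 ± 0.18), and 10 of 32 other mitosis genes rose and 0 fell (Nek2, a centrosome kinase, 1.78 ± 0.22), where 13.6% of all genes rose and 11.3% fell. The Pole2 call was lost in 12 of 15 alternative fits. The G1 list had 0 higher and 3 lower of 8 in no tumor fat, with Myc at -0.87 ± 0.11 and Cdk4 at -0.36 ± 0.07. Both calls were lost with all 24 libraries in one fit. The G1 list had 3 higher and 0 lower of 8 in peritumoral fat, and 1 higher and 2 lower of 8 in contralateral fat. Of 15 inhibitors and pocket proteins, 6 were higher and 1 lower on HFD in peritumoral fat, where 17.2% of all genes were lower. The inhibitor counts were 8 higher and 2 lower in contralateral fat, and 4 higher and 1 lower without a tumor.

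Across the 24 libraries the members moved mostly together. The mean standardized log2 level of the 58 genes was followed most closely by Atad2 (Pearson r = 0.986), Ect2 (0.984), Racgap1 (0.981), Aspm (0.978), Topbp1 (0.977), Smc2 (0.975), Spag5 (0.974), Hist1h1a (0.974), Plaur (0.974) and Cdca3 (0.972) among 14899 other genes. These values describe 24 libraries that share the group differences. Among the members, the log2 levels of Tk1 (0.301), E2f1 (0.65), Ccne1 (0.73) and Gins2 (0.737) had the lowest Pearson r with the mean of the others.

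Other cell types differed along with these genes, and their part in the results was not tested. In HFD peritumoral fat the 8 macrophage markers summed to 2219, 2137, 3009 and 2832 CPM, against 1299, 1169, 1516 and 1382 CPM in HFD contralateral fat and 1099, 1499.7, 1848 and 1857 CPM in Chow peritumoral fat. Of these 8 markers, 6 rose in HFD peritumoral over HFD contralateral fat, where 16.8% of all genes rose and 12.7% fell. The 8 lipid-associated macrophage markers summed to a mean of 2694 CPM in HFD peritumoral fat, against 4618 CPM in HFD contralateral fat. The sum hides differences between these markers, since 6 had fold changes above 0 and 2 below (median log2 value 0.15). Of them 2 were called higher and 1 lower. The 6 neutrophil markers summed to 24.5, 35.6, 68.4 and 58.8 CPM in HFD peritumoral fat, against 7.14, 9.16, 13.5 and 22.4 CPM in HFD contralateral fat. The sums of the 8 macrophage and the 6 neutrophil markers stood apart between the groups. The 8 adipose progenitor and fibroblast markers summed to a mean of 8588 CPM in HFD peritumoral fat, against 6608 CPM in HFD contralateral fat. Of these progenitor and fibroblast markers 4 had fold changes above 0 and 4 below (median log2 value 0.02), and 2 were called higher and 0 lower. Of 8 blood endothelial markers 0 were called. The 8 adipocyte markers summed to 16261, 8748, 11939.8 and 10838 CPM in HFD peritumoral fat, against 18691, 18173, 20289 and 19334 CPM in HFD contralateral fat, and 6 of the 8 fell. Within HFD peritumoral fat, replicate 1 had the most adipocyte and the least member RNA, and replicate 2 the reverse.

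The 10 epithelial markers, which mammary tumor cells can also carry, summed to 463, 179.6, 326 and 117 CPM in HFD peritumoral fat, against 410.0, 368, 352 and 306 CPM in HFD contralateral fat and 720.1, 626, 683 and 614 CPM in Chow peritumoral fat. None of the 10 passed between HFD peritumoral and HFD contralateral fat, where the fold changes were all below 0. The 8 B cell markers summed to 14.4, 163, 4.65 and 56.6 CPM in HFD peritumoral fat, against 24.6, 3.50, 11.5 and 10.3 CPM in HFD contralateral fat. Lymph nodes lie in this fat and hold dividing B cells. The 6 lymph node stroma markers summed to between 7.25 and 50.6 CPM in HFD peritumoral fat, against 3.20 to 15.6 CPM in HFD contralateral fat, and of the 3 tested, all above 0, Cxcl13 was called (1.69 ± 0.49), while Ccl21a and Ccl19 were at 0 counts in all 24 libraries. The 6 germinal centre markers summed to between 58.8 and 71.6 CPM in HFD peritumoral fat, against 51.5 to 68.6 CPM in HFD contralateral fat, and of the 3 tested S1pr2 was called higher (0.66 ± 0.11), while Mef2b was at 0 counts in all 24 libraries. HFD peritumoral replicate 2 had the highest B cell and node stroma sums of its group, and replicate 4 also held 56.6 CPM of B cell markers. Without replicate 2, 56 members rose over HFD contralateral fat, with a median of 1.92. Replicate 4 stayed in that fit, so it cannot show the part of lymph node cells in the rise, which was not tested. Skeletal muscle markers summed to 4771, 3311, 78.1 and 2708 CPM in Chow contralateral fat and to at most 77.8 CPM in HFD contralateral fat.

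Some members share exon bases with a neighbouring gene, and no source used here states the strand of counting, so their counts are uncertain. This holds for 14 members, most of all Gins2 with Gse1 (67.3% of its exon bases), Kif20a with Cdc23 (33.2%), Ube2c with the muscle gene Tnnc2 (22.8%), Ccne2 with Ints8 (17.4%), Ccna2 with Exosc9 (14.6%) and Ncapg with Lcorl (13.3%). Tk1 shares 1.6% with Afmid.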

How the data were processed

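Fat was flash frozen, and its total RNA was freed of DNA and of ribosomal RNA before sequencing, per the labels' protocols. The values used are raw gene counts, deposited by the authors in a single table of 39017 genes by 24 libraries. TopHat, DESeq and the build mm10 are named in the submitters' processing notes, without versions. The counting tool and strand are not given in the sources used here. Groups came from the diet and sample type labels. The 58 genes, their role lists, the pathway lists and the marker lists were chosen with earlier results of these data known.

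Every pair of groups had its own fit of 8 libraries and either interaction one of 16. The tool was edgeR 4.0.16 under R 4.3.3 (TMM factors, robust quasi-likelihood F test). Genes were kept by filterByExpr (minimum count 10, minimum total 15). Benjamini-Hochberg adjustment ran over all genes tested, with a threshold of 0.05. Errors of log2 fold changes are standard errors. A member with few counts in both groups was not tested, and such a filter favours members that are high in 1 group. Alternatives were DESeq2 1.42.0, RLE size factors, no filter, a filter of 1 CPM in 4 libraries, all 24 libraries in one fit, the B cell mean as covariate, a block of replicate numbers, and dropping every library in turn. Library totals ran from 9.13 to 18.2 M counts, and the rarest members had counts as low as 3, so their fold changes are the least precise.

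Library values are given for 12 genes fixed by role, but only in some of the groups and comparisons. Fold changes are given for up to 8 members per comparison and up to 4 genes per pathway list with the lowest adjusted p. The other named members and the values of Tk1, Bub1, Mcm3, Anln and Cdc45 were chosen after their values were seen. The genes most like the members were ranked by Pearson r among genes with a mean of at least 1 CPM. Promoter letters came from RefSeq, and exon positions from the matrix.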

Additional observations from a re-analysis of the deposited data

Results flagged for a closer look

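Of 120 sets of 4 libraries examined for a library far from the rest (12 genes and 8 sums in 6 groups), 3 held one whose gap to its nearest neighbour exceeded Dixon's critical share of the range for 4 samples. Chance alone flags about 1 in 20 such sets. Mki67 in HFD contralateral fat was 52.01 CPM in replicate 2, against 27.2 to 28.8 CPM in the other 3 libraries. Cdk1 in Chow no tumor fat was 1.47 CPM in replicate 2, against 0.930 to 1.02 CPM. Rrm2 in Chow no tumor fat was 1.18 CPM in replicate 4, against 1.73 to 1.83 CPM.

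The difference between contralateral and no tumor fat depended on diet by edgeR's interaction test for 4 members. The log2 interaction was 0.82 for E2f1, 0.62 for Mcm3 (a call lost with all 24 libraries in one fit), 1.04 for Gins2 and -0.97 for Tk1. E2f1 averaged 9.90 ± 1.28 CPM in HFD contralateral, 3.68 ± 0.636 CPM in Chow contralateral, 6.43 ± 0.404 CPM in HFD no tumor and 4.39 ± 0.177 CPM in Chow no tumor fat (SD, n = 4 each). Tk1 averaged 6.35 ± 0.778 CPM in HFD contralateral and 13.9 ± 1.86 CPM in Chow contralateral fat. Gins2 shares 67.3% of its exon bases with Gse1, so its counts are uncertain.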

How the results depend on the processing

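The rise in HFD peritumoral over HFD contralateral fat held under the 7 alternatives that kept all libraries (52 to 57 members called) and without any 1 library (53 to 57). With all 24 libraries in one fit, members called fell to 3 for HFD against Chow without a tumor (17 in the 8-library fit), to 9 in contralateral fat (20), to 0 for contralateral against no tumor on Chow (1) and to 1 on HFD (2), while the interaction of diet with tumor side had 7 (0). The cause was not tested. DESeq2 called 11 members in that interaction, and the stricter filter of 1 CPM called 2 on Chow for contralateral against no tumor fat.

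Leaving out 1 library at a time gave 9 to 21 calls for HFD against Chow without a tumor, 12 to 23 in contralateral fat and 30 to 56 in peritumoral fat. It gave 1 to 3 for contralateral against no tumor fat on HFD and 0 to 27 for the interaction with tumor side. Counts moved by over 1.5 times without Chow no tumor replicate 4 (10) or HFD no tumor replicate 2 (11), 3 (10) or 4 (9), without Chow contralateral replicate 1 (12) or HFD contralateral replicate 1 (13) or 2 (12), without Chow peritumoral replicate 1 (30) or 2 (30) or HFD peritumoral replicate 4 (31), without HFD no tumor replicate 3 for the contralateral comparison on HFD (1), and for the interaction without HFD peritumoral replicate 1 (27) or Chow peritumoral replicate 3 (1). Of the 130 named log2 values that were called, 0 turned sign under any alternative, and of the 73 that were not called 20 did.

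The labels do not say whether peritumoral and contralateral libraries with the same number came from the same mouse. Correlations over 4 pairs cannot settle this. Same-numbered libraries did not deviate together in every pair of any comparison. For peritumoral against contralateral fat on HFD, 3 of 4 pairs had r above 0.1, with a highest r of 0.376. With the block, members called were 13 for HFD against Chow without a tumor, 53 in peritumoral and 14 in contralateral fat. They were 57 and 0 for peritumoral against contralateral fat on HFD and on Chow. For the interactions with tumor bearing and tumor side they were 4 and 0. These counts show only how the block moved the calls, as shares of all genes with the block are not given here. At most 2 of 4 libraries correlated best with their own number. Depth limits the rarest members most, with Ccnb1, Ttk and Melk not tested in some comparisons.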
